A study of Mus musculus with 107 samples.

Results

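Notch1, Notch2 and Notch3 are receptors of the Notch pathway, Dll1, Dll3 and Jag1 are ligands, and Hes1, Hes5, Hey1 and Hey2 are transcriptional repressors switched on by Notch signalling. The 10 genes were picked by symbol, and each symbol matched 1 mouse Entrez identifier among the 27179 genes counted in every library.

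The study followed mouse neural progenitor cells (NPC) in culture and after grafting into spinal cord, and its 107 libraries fall into 23 groups of 4 to 9. Each library holds RNA bound to ribosomes that carry the HA-tagged protein Rpl22 (RiboTag), pulled down with an antibody to the tag from cell pellets or cord segments and sequenced after poly(A) selection, a method meant to draw on the tagged cells of a tissue. Cultured and grafted cells all came from a single female embryonic stem cell (ESC) line, C57BL/6, homozygous for the RiboTag allele recombined through Sox2-cre. Host astrocytes came from C57BL/6 mice of the 73.12 GFAP-Cre RiboTag cross, in which cells that have expressed this GFAP promoter carry the tag.

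Undifferentiated cultures were ESC (n = 4), NPC of 1 derivation at passage 5, 15 and 30 (NPC P5, NPC P15 and NPC P30, n = 4 each), and NPC at passage 15 from the derivations d2 (NPC P15 d2, n = 6) and d3 (NPC P15 d3, n = 4), all NPC grown with EGF and FGF at 100 ng/ml. Another 8 groups of 4 were differentiated for 4 days with EGF and FGF lowered to 1 ng/ml. SPONT received nothing further, and the other 7 received the cytokine CNTF (100 ng/ml), IGF-1 (100 ng/ml, called IGF here), fetal bovine serum (FBS) at 1, 5, 10 or 20%, or CNTF with 5% FBS. In 3 groups of 5, NPC were passed through a glass pipette in medium (NPC media), in a diblock copolypeptide hydrogel used as carrier (NPC DCH), or after 4 hours in that hydrogel (NPC DCH 4h).

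Host astrocytes came from uninjured cord (Astro, n = 9) and from cord at 14 days after a crush spinal cord injury (SCI) at vertebral level T10 (Astro SCI, n = 5). Grafted NPC were recovered at 14 days from uninjured cord (NPC uninjured 14d), crush SCI (NPC SCI 14d) or a double crush (NPC dSCI 14d), and 5 days after grafting from crush SCI (NPC SCI 5d), each n = 5. By the study's methods hosts were of both sexes and 8 weeks to 4 months old at surgery, and grafts were placed 2 days after injury. The study counts the 14 days of SCI grafts from grafting in some places and from injury in others. The labels do not say which derivation or passage was differentiated or grafted. They do not say that replicates were separate cultures or animals either, while the study's methods describe graft replicates as mice and culture replicates as independent.

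Total counts ran from 12286240 to 18085106 in the 11 libraries of NPC P15 d2 and NPC SCI 5d and from 30473157 to 147764968 in the other 96. Group medians lay between 14188374 (NPC SCI 5d) and 111741779 (Astro SCI). Levels are CPM, counts scaled to a common library total, and means are given ± SD over libraries with the n above. FPKM (CPM divided by exon length in kilobases) is used where genes are compared with each other. Differences are log2 fold changes (log2FC) from edgeR with TMM scaling, with their standard error (SE), and a gene is said to be called higher or lower where its p, adjusted over all genes tested in that comparison, is below 0.01.

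In the Notch pathway a Delta-like or Jagged ligand on a cell binds a Notch receptor on its neighbour, the receptor is cut by gamma-secretase, and its freed intracellular domain joins Rbpj in the nucleus and switches on Hes and Hey genes. In the nervous system this keeps progenitors from becoming neurons and favours glial fates, with Hes1 and Hes5 acting as repressors of proneural genes. Dll3 differs from the other ligands in that it stays mostly inside the cell and blocks signalling within the cell that makes it.

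On the mouse build GRCm38 the ligands lie apart, Dll1 (Entrez 13388) on chromosome 17, Dll3 (Entrez 13389) on chromosome 7, and Jag1 (Entrez 16449) on chromosome 2. The receptors are Notch1 (Entrez 18128) on chromosome 2, Notch2 (Entrez 18129) on chromosome 3, and Notch3 (Entrez 18131) on chromosome 17. The targets are Hes1 (Entrez 15205) on chromosome 16, Hes5 (Entrez 15208) on chromosome 4, Hey1 (Entrez 15213) on chromosome 3, and Hey2 (Entrez 15214) on chromosome 10. Notch1 overlaps the counted gene 0610009E02Rik, and since featureCounts ignores strand by default, reads from their shared bases cannot be told apart.

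The labels were checked against lists of marker genes for 10 cell types. The 5 ESC markers (Pou5f1, Nanog, Dppa4, Zfp42 and Esrrb) summed to 2365, 2349.6, 2395 and 2381 CPM in the ESC libraries. All 5 were well above zero there, and in every other group their mean sum was at most 18.3 CPM (NPC P5, mostly Esrrb). The 5 NPC markers summed to 4148, 4025, 3907 and 4056 CPM in NPC P15 against 830.1 to 877 CPM in ESC, where Sox2 made up most of the sum. Astrocyte markers (5 genes, Gfap most abundant) summed to 30743 at the lowest, 35622 at the median and 38208 at the highest CPM in Astro and 30187, 23634, 34922, 38929.9 and 26873 CPM in Astro SCI. In the grafts the same astrocyte list reached 10268 to 17052 CPM in uninjured cord and 9931 to 21199 CPM in NPC SCI 14d, against 726 to 764 CPM in NPC P15.

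Host and graft libraries also carried markers of other cell types. The 6 oligodendrocyte-lineage markers, led by Mbp, summed to 7305 ± 1873 CPM in Astro and 17607 ± 5915 CPM in NPC uninjured 14d, and the 5 neuron markers, led by Snap25, summed to 1974 ± 1391 CPM in the latter. The 5 fibroblast markers, led by Col1a1, summed to 9287 ± 5824 CPM in NPC dSCI 14d and 6807 ± 3459.5 CPM in NPC SCI 5d; Pdgfra stands in both this list and the oligodendrocyte-lineage list. Myeloid markers (5 genes, Csf1r most abundant) reached 718 ± 401 CPM and endothelial markers (5 genes, Cldn5 most abundant) 262 ± 178.6 CPM in NPC dSCI 14d, against at most 2.32 CPM of myeloid and 155 to 172.4 CPM of endothelial markers (Pecam1 most abundant) in the ESC libraries. The 4 ependymal markers, led by Foxj1, had their highest mean sum in CNTF+5% FBS at 471 ± 21.2 CPM. In such pooled samples fewer cells of a type and less RNA per cell cannot be told apart. With each comparison of 2 groups, every list whose sums did not overlap between them is named by cell type with its range of summed CPM, where its means were at least 2-fold apart and 1 of them reached 10 CPM. Each range is of a sum, which an abundant gene can carry while other genes of its list stay flat or go the other way. The part of these lists in a result was not tested.

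Some libraries were followed more closely because they stood apart from their groups by eye, with no fixed rule. NPC SCI 5d library 4 had 691 CPM of NPC markers and 1137 CPM of myeloid markers, while the other 4 had at least 1849 and at most 136 CPM. NPC SCI 14d library 5 had 569.8 CPM of NPC markers and 2725 CPM of fibroblast markers, the other 4 at least 1101 and at most 1203 CPM. NPC uninjured 14d library 5 had 4359 CPM of neuron markers, the other 4 at most 2029 CPM. NPC dSCI 14d library 1 had 19297 CPM of fibroblast markers, the other 4 at most 8697 CPM. Among the differentiated cultures SPONT library 2 was low in all 3 receptors, with Notch3 at 52.6 CPM where the other 3 had 93.7 to 97.8 CPM. Where leaving out one of these 5 libraries ends or adds a call, the value without it is given with the result.

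Compared per length, the member with the highest level differed between kinds of sample. Hes1 had the highest FPKM of the 10 members in ESC (19.4), in all 5 NPC cultures (14.7 to 39.7), in the 3 pipette groups and in 20% FBS. Dll3 led in SPONT (174 FPKM), CNTF, IGF, 1% FBS and 5% FBS (22.8 FPKM), with Hes5 next in the first 4 of these (117 FPKM in SPONT). Notch2 led in 10% FBS (18.3 FPKM). Hey1 led in CNTF+5% FBS (30.8 FPKM), in both host groups (44.1 FPKM in Astro, followed there by Hey2 at 12.4) and in all 4 graft groups.

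Among the ligands, Dll3 spanned the widest range of levels. Its mean was 495 ± 68.8 CPM in SPONT, above every library of the next groups CNTF (334 ± 24.4), 1% FBS (309.9 ± 35.6) and IGF (302 ± 29.7), which overlapped in that order. After a gap came 5% FBS (65.0 ± 47.9) and CNTF+5% FBS (39.01 ± 4.15), overlapping, then NPC P5 (22.6 ± 0.195). From NPC P30 (16.6 ± 2.42) each group overlapped the next down through NPC SCI 14d (14.9 ± 2.28), the 3 pipette groups, NPC uninjured 14d (12.3 ± 4.96) and 10% FBS to ESC (8.54 ± 1.77). The remaining 8 groups, from NPC P15 d2 (3.80 ± 0.357) to NPC dSCI 14d (1.55 ± 1.42), formed a lower run in which neighbours overlapped.

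Dll1, a ligand that activates Notch on neighbouring cells, was highest in SPONT (147 ± 44.7 CPM) and CNTF (120.4 ± 16.3), which overlapped each other and stood above every library of all other groups. A run of overlapping neighbours followed from 1% FBS (65.8 ± 14.8) and IGF (65.0 ± 10.02) through NPC P5 (56.8 ± 4.04) to NPC P15 (25.97 ± 2.59), and another from CNTF+5% FBS (19.7 ± 0.548) to NPC P15 d3 (10.8 ± 1.90). ESC (6.25 ± 1.67), both host groups, the SCI grafts, 10% FBS and 20% FBS (1.52 ± 0.195) made up the lowest run. Jag1, the Jagged ligand among the members, had a different order, with NPC P15 (149 ± 11.0 CPM) and NPC P15 d2 (143 ± 5.46) on top, NPC P30 (100.9 ± 6.03) and NPC media (97.7 ± 8.02) next, and NPC DCH 4h (73.8 ± 7.32) and NPC DCH (70.2 ± 6.69) below them without overlap between these pairs. From NPC P15 d3 (33.97 ± 3.32) down to CNTF+5% FBS (4.60 ± 0.320) every group overlapped its neighbour, and the 8 differentiated groups, the hosts and ESC all lay below NPC P5 in mean level.

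The receptors varied less than the ligands, and all 3 had mean levels above 10 CPM in all 23 groups. Notch1 was highest in NPC P15 (445 ± 44.8 CPM) and NPC P15 d2 (425 ± 39.2), then apart in NPC P30 (338 ± 13.3), and from NPC media (279.5 ± 10.5) to Astro SCI (41.3 ± 12.3) each group overlapped the next. Notch2 was highest in CNTF+5% FBS (252 ± 32.6 CPM), apart from 5% FBS (203 ± 17.4) and 20% FBS (183.2 ± 7.32) but overlapping 10% FBS (197 ± 30.3) and NPC SCI 5d (179.1 ± 61.0), and lowest, apart from all other groups, in ESC (27.7 ± 1.58). Notch3 was highest in NPC P15 d2 (234 ± 11.7 CPM) and NPC SCI 5d (205 ± 89.4), the 2 groups with the lower depth. Its other undifferentiated NPC groups except NPC P15 d3 followed down to NPC P5 (114 ± 5.43), apart from the next group, and IGF (46.7 ± 5.83), CNTF (39.8 ± 3.59) and Astro SCI (37.3 ± 12.99) were lowest.

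**Figure D1:**
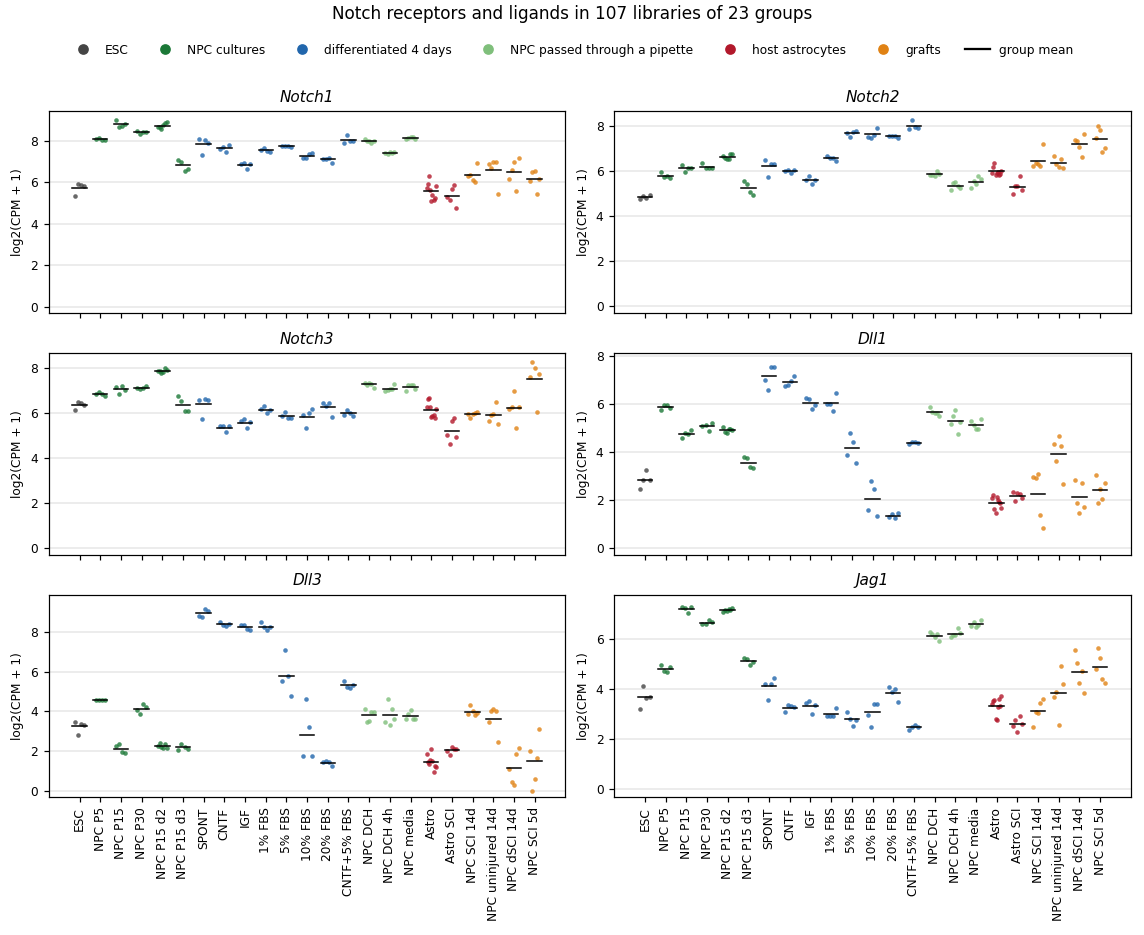
Levels of the 3 receptors and 3 ligands as log2(CPM + 1) in each of the 107 libraries, arranged by group, with 1 point per library and a black line at the mean of log2(CPM + 1) of its group. Dll1 and Dll3 were highest in the cultures differentiated without serum or with 1% FBS, Jag1 and Notch1 in undifferentiated NPC, and Notch2 in cultures with 5% FBS or more.

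Among the targets, Hes5 had the widest range of the 10 members. SPONT (160.0 ± 22.2 CPM) stood apart from IGF (122 ± 9.29), IGF apart from CNTF (102.4 ± 3.75), and CNTF overlapped 1% FBS (83.2 ± 17.4), below which came a gap to 5% FBS (13.9 ± 6.70), NPC P15 d2 (12.0 ± 0.852) and Astro (8.65 ± 2.25). The next 14 groups ran in overlapping steps from CNTF+5% FBS (4.52 ± 0.236) to NPC P15 d3 (0.364 ± 0.117). At the bottom lay 20% FBS (0.131 ± 0.0600) and NPC dSCI 14d (0.0700 ± 0.0505), whose 5 libraries held 2 to 7 counts of Hes5 each. Hes1 was far more even, from 80.8 ± 7.51 CPM in NPC P15 and 74.2 ± 3.82 in NPC P15 d2, apart from the rest, through overlapping neighbours to 10.01 ± 7.88 in NPC SCI 14d and 8.30 ± 1.78 in Astro SCI.

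Hey1 and Hey2 had separate orders. Hey1 was highest in NPC SCI 5d (152 ± 50.3 CPM) and Astro (144 ± 12.9), and below Astro, without overlap, came an overlapping run of 12 groups from CNTF+5% FBS (100.6 ± 3.90) to 20% FBS (42.99 ± 3.37) that held all other differentiated, host and graft groups. Below it stood NPC P15 d2 (31.6 ± 1.32), apart on both sides, then the remaining NPC groups, with NPC P15 d3 (4.69 ± 1.498) and ESC (2.93 ± 0.616) last. Hey2 was highest in the hosts, Astro (56.8 ± 4.57 CPM) overlapping Astro SCI (46.2 ± 12.998), both above every library of the other groups. The grafts and differentiated cultures followed from NPC uninjured 14d (21.5 ± 7.07) to 20% FBS (2.97 ± 0.241) in overlapping steps, and ESC and all undifferentiated NPC groups had means from 1.29 (ESC) down to 0.179 CPM (NPC P5).

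**Figure D2:**
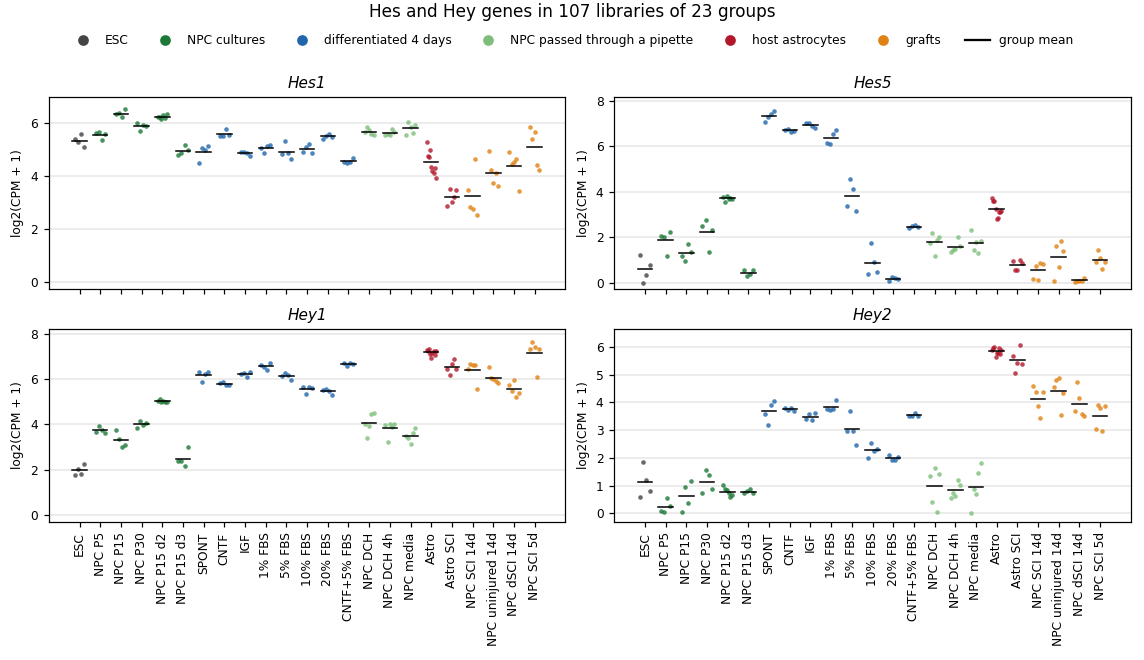
Levels of the 4 target genes as log2(CPM + 1) in each of the 107 libraries, arranged by group, with 1 point per library and a black line at the mean of log2(CPM + 1) of its group. Hes5 was highest in cultures differentiated without serum or with 1% FBS, Hey2 in host astrocytes, and Hes1 in NPC P15 and NPC P15 d2.

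NPC P15 were set against ESC for neural induction. Notch1 stood at 505, 407, 414 and 452 CPM in the NPC P15 libraries and 39.99, 58.6, 57.7 and 54.8 CPM in the ESC libraries. Jag1 stood at 155, 152, 132 and 155 CPM against 8.19, 16.7, 11.6 and 11.9 CPM. For both genes every NPC library lay above every ESC library. Notch1 rose (log2FC 2.99, SE 0.12, adjusted p = 1.30e-09) and so did Jag1 (log2FC 3.54, SE 0.18, adjusted p = 9.29e-09). In all, 8 of 10 members were called (7 higher, 1 lower), beside 67.2% of all 15350 genes tested. Over the members the median log2FC was 1.25, and over all genes −0.10. Besides these, Dll1 (25.97 ± 2.59 against 6.25 ± 1.67 CPM, log2FC 1.97, SE 0.20, adjusted p = 3.05e-06), Notch2 (1.23, adjusted p = 2.90e-07), Notch3 (0.61, adjusted p = 1.60e-04), Hes1 (0.94, adjusted p = 1.05e-05) and Hey1 (1.53, adjusted p = 4.88e-04) rose. Dll3 fell from 10.03, 5.98, 9.17 and 8.99 CPM to 3.70, 4.10, 2.91 and 2.79 CPM (log2FC −1.43, SE 0.27, adjusted p = 4.98e-04), with no overlap. Hes5 and Hey2 were below 3 CPM in all 8 libraries and were not called. Other NPC groups did not all agree: every NPC P5 and NPC P30 library was above every ESC library for Dll3 (means 22.6 and 16.6 CPM), Notch3, Hes1 and Hey1 overlapped ESC in NPC P15 d3, and so did Hes1 in NPC P5.

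A list of 46 further pathway genes held 43 tested here, of which 22 were higher and 13 lower in NPC P15. The largest rises were those of Dner (25.5 ± 6.35 against 0.441 ± 0.255 CPM, log2FC 5.75, adjusted p = 1.94e-07), a ligand-like membrane protein, and Aph1b (16.6 ± 2.74 against 0.389 ± 0.258 CPM, log2FC 5.34, adjusted p = 2.37e-06), a gamma-secretase subunit. The largest falls were those of Mfng (0.129 ± 0.113 against 10.2 ± 2.45 CPM, log2FC −6.31, adjusted p = 1.57e-06), a Fringe glycosyltransferase, and the receptor Notch4 (1.91 ± 1.27 against 30.3 ± 4.08 CPM, log2FC −4.08, adjusted p = 1.40e-04). Beside the ESC and NPC markers, lists without overlap were astrocyte (726 to 764 against 55.5 to 60.8) and oligodendrocyte-lineage (262 to 314 against 19.8 to 30.7). Others were neuron (32.5 to 37.7 against 352 to 378), endothelial (1.03 to 2.07 against 155 to 172.4) and fibroblast (66.8 to 72.9 against 9.23 to 15.2). Ependymal sums (6.79 to 11.8 against 16.2 to 21.3) did not overlap either. In the neuron list mean Stmn2 (0.0670 against 306 CPM) and Tubb3 (13.1 against 52.7) were lower in NPC P15. Syt1 (14.2 against 0.433) and Rbfox3 (7.62 against 2.04) were higher. In the fibroblast list mean Pdgfra was higher (61.0 against 1.99 CPM) and Col1a1 lower (4.54 against 6.47).

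Passage was addressed by NPC P30 against NPC P5 of the same derivation. Jag1 stood at 96.5, 96.3, 109 and 101.5 CPM at P30 and 30.4, 25.2, 24.97 and 28.5 CPM at P5, and Dll1 at 32.9, 33.4, 28.3 and 35.5 CPM against 51.9, 60.1, 60.1 and 54.9 CPM. Neither gene's groups overlapped, Jag1 being higher and Dll1 lower at the later passage. Jag1 rose (log2FC 1.87, SE 0.08, adjusted p = 3.52e-13) and Dll1 fell (log2FC −0.82, SE 0.09, adjusted p = 2.21e-07). In all, 7 of 10 members were called (5 higher, 2 lower), beside 35.5% of all 14577 genes tested. Members had a median log2FC of 0.31 and all genes one of 0.01. With all 23 groups in 1 fit 2 members were called. Rises in the receptors were small: Notch1 (0.31, adjusted p = 3.10e-06), Notch2 (0.38, adjusted p = 4.88e-04) and Notch3 (0.26, adjusted p = 4.46e-04). The calls of Hes1 (0.30, adjusted p = 0.00835) and Dll3 (−0.46, adjusted p = 0.00399) each depended on single libraries. Hes1 lost its call without P5 library 1, 3 or 4 or P30 library 1, 3 or 4 (adjusted p from 0.0104 to 0.0421), and Dll3 without P5 library 1, 3 or 4 or P30 library 1 or 2 (adjusted p from 0.0111 to 0.0132).

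Levels at passage 15 did not lie between the earlier and later passage for several members. Jag1 had 149 ± 11.0 CPM and Notch1 445 ± 44.8 CPM at P15, above every library of P5 and P30, while Dll3 had 3.38 ± 0.632 CPM, below every library of both. Of 42 further pathway genes tested between P30 and P5, 10 were higher, led by Neurl1a (21.9 ± 1.79 against 6.25 ± 1.499 CPM, log2FC 1.78, adjusted p = 2.44e-08), an E3 ligase, and Nrarp (83.2 ± 4.54 against 29.2 ± 1.92 CPM, log2FC 1.49, adjusted p = 5.31e-12), a feedback inhibitor. Another 3 were lower, led by Dlk1 (3.92 ± 0.932 against 16.1 ± 1.56 CPM, log2FC −2.06, adjusted p = 1.75e-08) and Lfng (178 ± 3.71 against 287 ± 3.39 CPM, log2FC −0.71, adjusted p = 1.51e-11). Lists of markers that moved between P30 and P5 were astrocyte (1171 to 1303 against 579 to 599) and neuron (107 to 110.3 against 47.99 to 56.1), and under 2-fold ESC, NPC, oligodendrocyte-lineage and fibroblast. Slc1a3 was the most abundant astrocyte marker in both groups. In the neuron list mean Tubb3 alone was higher at P30 (104.2 against 29.1 CPM). Syt1 (1.78 against 18.2), Rbfox3 (0.962 against 3.52), Snap25 (1.11 against 1.69) and Stmn2 (0.0829 against 0.125) were lower at P30.

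Derivations were compared at passage 15, with d3 against the first. Notch1 stood at 133.6, 125, 93.5 and 99.9 CPM in d3 and 505, 407, 414 and 452 CPM in NPC P15, and Jag1 at 37.2, 36.1, 29.96 and 32.6 against 155, 152, 132 and 155 CPM. All 4 d3 libraries lay below all 4 libraries of the first derivation for both genes. Notch1 (log2FC −1.93, SE 0.11, adjusted p = 3.10e-08) and Jag1 (log2FC −2.08, SE 0.09, adjusted p = 1.58e-09) fell, and 8 of 10 members were called (0 higher, 8 lower), beside 48% of all 14370 genes tested. The median log2FC was −1.06 over the members and 0.02 over all genes. Notch2 (−0.84, adjusted p = 1.08e-04), Notch3 (−0.62, adjusted p = 0.00180), Dll1 (−1.22, adjusted p = 5.11e-06) and Hes1 (−1.38, adjusted p = 2.44e-07) were also lower. The calls of Hes5 (−1.99, adjusted p = 0.00362) and Hey1 (−0.89, adjusted p = 0.00524) were lost on leaving out d3 library 1, 2 or 3 (adjusted p of Hes5 0.0101, 0.0172 and 0.0172; of Hey1 0.0137, 0.0175 and 0.0200), and Hey1 also without NPC P15 library 1 (0.0219) or 2 (0.0136). Among 41 further pathway genes 4 were higher, led by Dlk1 (14.7 ± 2.27 against 7.02 ± 1.996 CPM, log2FC 1.12, adjusted p = 2.92e-04), and 19 lower, led by Maml2 (47.5 ± 6.54 against 139.6 ± 7.31 CPM, log2FC −1.51, adjusted p = 5.38e-08). Of the marker lists ependymal (26.2 to 36.3 against 6.79 to 11.8) and, under 2-fold, NPC, oligodendrocyte-lineage, neuron and fibroblast did not overlap. Derivation d2, whose libraries have lower totals, was not tested against the others. Its levels of Hes5 (12.0 ± 0.852 CPM), Hey1 (31.6 ± 1.32), Notch2 (97.8 ± 7.12) and Notch3 (234 ± 11.7) were above every library of NPC P15.

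SPONT against NPC P15 shows the change when EGF and FGF were lowered for 4 days. Dll3 stood at 445, 432, 577 and 527 CPM in SPONT and 3.70, 4.10, 2.91 and 2.79 CPM in NPC P15, Hes5 at 132, 154, 171.2 and 183.001 against 1.26, 0.942, 2.28 and 1.55 CPM, and Dll1 at 125, 94.9, 185 and 183.5 against 22.9, 26.3, 25.6 and 29.2 CPM. All 4 SPONT libraries were above all 4 NPC P15 libraries for each of these genes, and SPONT libraries 3 and 4 were the highest of their group. Jag1, in contrast, stood at 17.3, 10.8, 17.5 and 21.1 CPM in SPONT, below every NPC P15 library. Dll3 (log2FC 7.31, SE 0.17, adjusted p = 9.14e-11), Hes5 (log2FC 6.87, SE 0.25, adjusted p = 2.44e-09) and Dll1 (log2FC 2.63, SE 0.19, adjusted p = 4.88e-07) rose, with Hey1 (72.0 ± 10.2 against 9.01 ± 2.43 CPM, log2FC 3.12, SE 0.19, adjusted p = 1.02e-07) and Hey2 (12.1 ± 3.22 against 0.620 ± 0.568 CPM, log2FC 4.47, SE 0.70, adjusted p = 1.81e-04), while Jag1 fell (log2FC −3.03, SE 0.17, adjusted p = 4.97e-08). In all, 8 of 10 members were called (5 higher, 3 lower), beside 57.2% of all 14852 genes tested. Over the members the median log2FC was 1.43, and over all genes 0.09, and TMM moved all log2FC by 0.13.

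The falls of Notch1 (234 ± 51.9 CPM in SPONT, log2FC −0.80, SE 0.15, adjusted p = 5.15e-04) and Hes1 (29.2 ± 5.64 CPM, log2FC −1.33, SE 0.14, adjusted p = 1.06e-05) depended on the reference. Against NPC P15 d3 Notch1 was higher in SPONT (1.11, adjusted p = 5.02e-05) and Hes1 was not called (0.03, adjusted p = 0.885); against NPC P5 neither was called (Notch1 −0.06, adjusted p = 0.687; Hes1 −0.51, adjusted p = 0.0102) and Jag1 lost its call (−0.57, adjusted p = 0.0120). The rises of Dll1, Dll3, Hes5, Hey1 and Hey2 were called against all 3 references. Notch2 rose against d3 (1.06, adjusted p = 9.59e-05) and P5 (0.59, adjusted p = 0.00229) but was not called against NPC P15 (0.24, adjusted p = 0.154), nor was Notch3 (−0.51, adjusted p = 0.0194). Without SPONT library 2 both were called (Notch2 0.34, adjusted p = 0.00636; Notch3 −0.37, adjusted p = 0.00365).

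Of 44 further pathway genes 19 were higher and 15 lower in SPONT. The ligand Dll4 had 2.51 CPM in SPONT and 0 counts in all 4 NPC P15 libraries, so it was at least 37.3-fold higher with a floor of 3 deposited counts per library. How many fragments 3 counts stand for is not known. Mfng (18.8 ± 2.28 against 0.129 ± 0.113 CPM, log2FC 7.19, adjusted p = 7.64e-08) and the target Heyl (6.81 ± 3.22 against 0.160 ± 0.135 CPM, log2FC 5.63, adjusted p = 6.57e-06) also rose. Neurl1a (1.56 ± 0.249 against 12.8 ± 1.39 CPM, log2FC −2.91, adjusted p = 1.67e-07) and Neurl1b (3.39 ± 0.540 against 19.1 ± 1.64 CPM, log2FC −2.36, adjusted p = 3.00e-07) fell most. Astrocyte markers moved with these genes, the 5-gene sum being 10832, 9506, 7177 and 7075 CPM in SPONT against 739.6, 736, 726 and 764 CPM in NPC P15, with Gfap most abundant in SPONT and no gene of the list at 3 counts or fewer. So did the lists oligodendrocyte-lineage (672 to 1616 against 262 to 314) and neuron (99.6 to 119.04 against 32.5 to 37.7). Fibroblast (121 to 207 against 66.8 to 72.9) and ependymal (153 to 181 against 6.79 to 11.8) sums moved as well. In the fibroblast list mean Pdgfra, shared with the oligodendrocyte-lineage list, was 166 against 61.0 CPM, and Col1a1 was 4.65 against 4.54. Col1a2 (0.586 against 1.70), Dcn (0.425 against 2.57) and Lum (0.291 against 0.831) were lower in SPONT. So were mean Slc1a3 (512 against 676 CPM) in the astrocyte list and Syt1 (4.39 against 14.2) in the neuron list. In the oligodendrocyte-lineage list Cspg4 was lower in mean (202 against 222). The part of these lists in the result was not tested.

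CNTF, IGF and 1% FBS were each compared with SPONT to ask what the added factor changed, and these 3 comparisons share the 4 SPONT libraries. For CNTF, Notch3 stood at 42.3, 41.3, 34.5 and 41.1 CPM, Hes1 at 44.4, 44.7, 53.4 and 45.5 CPM and Hes5 at 103.8, 107, 98.2 and 100.8 CPM. The SPONT libraries had 95.5, 52.6, 97.8 and 93.7 CPM of Notch3 and 21.1, 32.3, 29.98 and 33.6 CPM of Hes1, with Hes5 as above. Hes1 was higher and the other 2 genes lower in all 4 CNTF libraries, without overlap. Notch3 fell (log2FC −1.07, SE 0.17, adjusted p = 6.58e-04), Hes5 fell (log2FC −0.62, SE 0.09, adjusted p = 4.50e-04) and Hes1 rose (log2FC 0.71, SE 0.14, adjusted p = 0.00311). In all, 6 of 10 members were called (1 higher, 5 lower), beside 19.9% of all 14879 genes tested, the other 3 being falls of Dll3 (−0.55, adjusted p = 0.00136), Jag1 (−0.93, adjusted p = 0.00200) and Hey1 (−0.39, adjusted p = 0.00839). Members had a median log2FC of −0.33 and all genes one of −0.01. All 23 groups in 1 fit gave 2 calls. Hey1 lost its call without any 1 of 7 libraries, all but SPONT library 2 (adjusted p from 0.0183 to 0.0322), and with library sizes alone (−0.41, adjusted p = 0.0103). Hes1 lost it without SPONT library 3 (0.71, adjusted p = 0.0106) or CNTF library 3 (0.64, adjusted p = 0.0140), and without SPONT library 2 Notch1 (−0.33, adjusted p = 0.00443) and Notch2 (−0.34, adjusted p = 6.08e-04) were called.

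For IGF, Notch1 stood at 117, 119.2, 97.7 and 116 CPM against 271, 158.4, 264 and 241 CPM in SPONT, and Dll1 at 74.2, 72.4, 53.3 and 59.9 CPM. Every IGF library was below every SPONT library for both. Notch1 (log2FC −1.01, SE 0.14, adjusted p = 0.00433), Dll1 (log2FC −1.13, SE 0.19, adjusted p = 0.00572), Dll3 (−0.67, adjusted p = 0.00488) and Notch3 (−0.81, adjusted p = 0.00888) fell, so that 4 of 10 members were called (0 higher, 4 lower), beside 6.55% of all 14941 genes tested. The median log2FC was −0.63 over the members and −0.01 over all genes. None of the 4 was called in edgeR when SPONT library 3 or 4 or any IGF library was left out (adjusted p from 0.0172 to 0.0383), although log2FC stayed between −0.59 and −1.20. Over all genes these 6 fits called 0 or 1, while the fit without SPONT library 2 called 5724. Without SPONT library 1 Notch3 was lost (−0.76, adjusted p = 0.0189) and Hes5 gained (−0.43, adjusted p = 0.00823), and without SPONT library 2 Notch2 (−0.72, adjusted p = 3.57e-05) and Jag1 (−0.95, adjusted p = 6.61e-05) were gained. DESeq2 called 7 members, and the fit of all 23 groups 1.

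For 1% FBS, Jag1 stood at 6.64, 6.71, 6.63 and 8.40 CPM and Hes5 at 70.3, 67.0, 92.4 and 103 CPM. Both were lower in all 4 serum libraries than in SPONT, without overlap. Jag1 (log2FC −1.22, SE 0.18, adjusted p = 9.83e-04) and Hes5 (log2FC −0.93, SE 0.15, adjusted p = 0.00175) fell together with Dll1 (−1.15, adjusted p = 0.00372) and Dll3 (−0.66, adjusted p = 0.00263). In all, 4 of 10 members were called (0 higher, 4 lower), beside 8.78% of all 14938 genes tested. Over the members the median log2FC was −0.28, and over all genes 0.00. In the fit of all 23 groups 1 member was called. Dll1 lost its call without SPONT library 3 or 4 or 1% FBS library 1, 2 or 3 (adjusted p from 0.0128 to 0.0162), and Dll3 without SPONT library 3 or 4 or 1% FBS library 2, 3 or 4 (0.0101 to 0.0122). Without SPONT library 2 Notch1 (−0.46, adjusted p = 0.00155) and Notch3 (−0.43, adjusted p = 0.00221) were called lower.

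Of the further pathway genes, with CNTF 2 of 45 were higher, among them Snw1 (163 ± 9.76 against 134.4 ± 3.81 CPM, log2FC 0.30, adjusted p = 0.00609), and 8 lower, led by Heyl (2.19 ± 0.506 against 6.81 ± 3.22 CPM, log2FC −1.62, adjusted p = 0.00339) and Dlk1 (0.671 ± 0.201 against 1.47 ± 0.146 CPM, log2FC −1.10, adjusted p = 0.00539). With IGF 1 of 44 was higher, Dlk2 (13.5 ± 1.27 against 4.23 ± 2.37 CPM, log2FC 1.72, adjusted p = 0.00846), and 4 lower, among them Maml2 (52.7 ± 3.66 against 89.1 ± 12.0 CPM, log2FC −0.71, adjusted p = 0.00389) and Maml1 (25.7 ± 2.77 against 43.1 ± 9.01 CPM, log2FC −0.69, adjusted p = 0.00780), both coactivators of the nuclear complex. With 1% FBS 1 of 44 was higher, Dlk1 (11.4 ± 3.09 against 1.47 ± 0.146 CPM, log2FC 2.97, adjusted p = 1.47e-05), and 5 lower, among them Dll4 (0.751 ± 0.196 against 2.51 ± 0.595 CPM, log2FC −1.73, adjusted p = 0.00118) and Mfng (8.80 ± 1.40 against 18.8 ± 2.28 CPM, log2FC −1.08, adjusted p = 7.76e-04). For CNTF, marker lists without overlap with SPONT were astrocyte (22071 to 23099 against 7075 to 10832) and neuron (254 to 265 against 99.6 to 119.04). Mural (38.4 to 41.6 against 6.10 to 7.78) and ependymal (334.6 to 335.8 against 153 to 181) were the others. In the mural list mean Kcnj8 was 36.9 against 3.03 CPM, while Pdgfrb was lower with CNTF (0.231 against 2.54). In the astrocyte list mean Slc1a2 (62.0 against 180 CPM) and Slc1a3 (361 against 512) were lower with CNTF. In the neuron list mean Tubb3 (226 against 79.8 CPM) and Stmn2 (3.04 against 0.728) were higher with CNTF, and Rbfox3 was 25.8 against 23.3. Syt1 (3.34 against 4.39) and Snap25 (0.988 against 1.37) were lower. For IGF the lists without overlap were oligodendrocyte-lineage (2138 to 2446 against 672 to 1616) and fibroblast (67.4 to 82.3 against 121 to 207). For 1% FBS they were astrocyte (17206 to 22727 against 7075 to 10832) and mural (19.6 to 59.7 against 6.10 to 7.78). Under 2-fold, astrocyte markers for IGF and ependymal markers for 1% FBS did not overlap with SPONT. Mean Pdgfra, in both IGF lists, was 71.5 against 166 CPM, and Col1a1 was 3.84 against 4.65. Col1a2 (0.747 against 0.586) and Dcn (0.538 against 0.425) were higher in mean with IGF. Abcc9 and, in the ependymal list, Tmem212 were at 3 counts or fewer. The part of all these lists in the results was not tested.

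The serum series shows levels by dose. Hes5 stood at 70.3, 67.0, 92.4 and 103 CPM with 1% FBS, 9.38, 22.3, 16.3 and 7.78 with 5%, 0.299, 2.38, 0.871 and 0.387 with 10% and 0.0570, 0.198, 0.155 and 0.113 with 20%. Dll3 stood at 360.3, 298, 277 and 304 CPM with 1%, 45.7, 134.7, 53.6 and 25.99 with 5%, 2.31, 23.9, 8.11 and 2.37 with 10% and 1.72, 1.80, 1.68 and 1.40 with 20%. For both genes each dose lay wholly below the dose before it, and library 2 was the highest of its group at 5 and 10%. Dll1 fell with dose too, with overlap between 10 and 20% alone.

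Between 20 and 1% FBS, Hes5 fell the most of the members (log2FC −9.32, SE 0.24, adjusted p = 1.35e-11), followed by Dll3 (log2FC −7.58, SE 0.12, adjusted p = 8.67e-13), Dll1 (log2FC −5.46, SE 0.16, adjusted p = 3.42e-11), Hey2 (2.97 ± 0.241 against 13.2 ± 1.75 CPM, log2FC −2.18, SE 0.11, adjusted p = 5.15e-09) and Hey1 (42.99 ± 3.37 against 93.7 ± 8.99 CPM, log2FC −1.15, SE 0.08, adjusted p = 4.36e-08). Notch1 fell less (−0.48, adjusted p = 5.42e-05). Notch2 stood at 186.9, 186, 187.7 and 172.2 CPM with 20% and 99.9, 94.5, 93.4 and 86.3 CPM with 1%, without overlap, while its 20% libraries overlapped those at 5% (201, 179.8, 212 and 220.0 CPM). Notch2 (log2FC 0.94, SE 0.07, adjusted p = 7.16e-08), Jag1 (0.91, adjusted p = 7.95e-05) and Hes1 (0.42, adjusted p = 3.76e-04) rose. In all, 9 of 10 members were called (3 higher, 6 lower), beside 60% of all 15381 genes tested. Members had a median log2FC of −0.81 and all genes one of 0.00. Notch3 was not called (0.09, adjusted p = 0.523).

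Of 44 further pathway genes 15 were higher with 20% FBS, led by Dlk1 (182 ± 12.4 against 11.4 ± 3.09 CPM, log2FC 3.96, adjusted p = 4.50e-10) and Maml3 (12.0 ± 0.734 against 1.53 ± 0.474 CPM, log2FC 2.95, adjusted p = 3.74e-08), and 13 lower. Among the latter were Nrarp (0.981 ± 0.0419 against 83.8 ± 6.90 CPM, log2FC −6.44, adjusted p = 6.82e-13), Heyl (0.0637 ± 0.0105 against 5.84 ± 1.68 CPM, log2FC −6.51, adjusted p = 2.78e-09) and Mfng, with 0.0269 ± 0.0373 against 8.80 ± 1.40 CPM (adjusted p = 2.30e-09). The sum of the 5 mural-cell markers moved with dose. It was 59.7, 42.8, 26.4 and 19.6 CPM with 1% and 375, 266, 253 and 253 with 5%. With 10% it was 691, 721, 1067 and 933, and with 20% FBS 2691, 2782, 2877 and 2002. Acta2, which smooth muscle cells and myofibroblasts make, was the most abundant at each dose, and Abcc9 was at 3 counts or fewer with 1, 5 and 10%. Between 20 and 1% FBS, mean Acta2 (2503 against 20.7 CPM) and Pdgfrb (83.1 against 5.35) were higher. Kcnj8 was lower (1.48 against 10.8), and Rgs5 was 0.286 against 0.226 CPM. Astrocyte markers summed to 4889, 4286, 4749 and 4818 CPM with 20% FBS, below every 1% library. Between 20 and 1% FBS, NPC (1284 to 1388 against 2475 to 3419) and oligodendrocyte-lineage (189 to 253 against 536 to 769) markers did not overlap either. Nor did neuron (28.6 to 39.7 against 106 to 131) and endothelial markers (60.4 to 68.3 against 0.714 to 1.27). Fibroblast sums (502 to 583 against 135.05 to 193.5) were apart as well. Most of the endothelial sum with 20% FBS was Kdr (mean 61.9 against 0.810 CPM). Pecam1 (0.0886 against 0.0717), Cldn5 (0.0132 against 0.00812) and Cdh5 (0.0434 against 0.0244) were far lower in both groups. The part of these lists in the result was not tested.

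CNTF added to 5% FBS was compared with 5% FBS alone. Hes5 stood at 4.26, 4.55, 4.83 and 4.45 CPM with both and 9.38, 22.3, 16.3 and 7.78 CPM with serum alone, and Hey1 at 103, 95.1, 103.6 and 100.6 against 69.0, 75.3, 72.4 and 60.2 CPM. Hes5 was lower and Hey1 higher in all 4 libraries with CNTF, and neither gene overlapped. Hes5 fell (log2FC −1.69, SE 0.29, adjusted p = 0.00165) and Hey1 rose (log2FC 0.47, SE 0.07, adjusted p = 5.96e-04); 2 of 10 members were called (1 higher, 1 lower), beside 23.3% of all 15272 genes tested. The median log2FC was 0.07 over the members and −0.01 over all genes. Leaving out 5% FBS library 2 added Hey2 (0.75, adjusted p = 0.00172), library 3 Jag1 (−0.56, adjusted p = 0.00686) and library 4 Hes1 (−0.54, adjusted p = 0.00966), and DESeq2 called 4 members and the fit of all 23 groups 0. Of 44 further pathway genes 8 were higher, led by Mib1 (50.8 ± 2.72 against 25.9 ± 2.06 CPM, log2FC 0.90, adjusted p = 7.83e-05), the ligase that activates ligands, and Rbpj (81.2 ± 2.74 against 54.6 ± 6.75 CPM, log2FC 0.50, adjusted p = 0.00120). The 2 that were lower were Dlk1 (7.97 ± 0.844 against 49.3 ± 10.8 CPM, log2FC −2.71, adjusted p = 4.35e-06) and Lfng (88.3 ± 3.37 against 132 ± 16.4 CPM, log2FC −0.65, adjusted p = 2.80e-04). Markers that moved with CNTF were mural (73.9 to 85.9 against 253 to 375) and, under 2-fold, neuron, fibroblast and ependymal. In the mural list mean Acta2 (64.3 against 248 CPM) and Pdgfrb (6.78 against 31.6) were lower with CNTF. Kcnj8 (8.29 against 6.47) and Rgs5 (0.542 against 0.273) were higher.

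Whether CNTF acted differently with serum was tested as the CNTF effect with 5% FBS minus the CNTF effect without serum. Hes1 differed by −1.18 on the log2 scale (SE 0.21, adjusted p = 4.08e-04), being higher with CNTF in the absence of serum (47.01 against 29.2 CPM) and lower in mean with serum (22.3 against 29.2 CPM). Notch3 (1.11, adjusted p = 5.25e-04) and Hey1 (0.84, adjusted p = 4.26e-05) differed in the opposite direction. In all, 3 of 10 members were called (2 higher, 1 lower), beside 22.9% of all 15726 genes tested, and scaling shifted the difference by −0.10; all 23 groups in 1 fit gave 1 call. Without SPONT library 2 Notch1 (0.57, adjusted p = 0.00120), Notch2 (0.58, adjusted p = 0.00109) and Jag1 (0.62, adjusted p = 0.00943) were also called. Hes5 (−1.08, adjusted p = 0.0125) was called without 5% FBS library 1 (−1.23, adjusted p = 0.00466) or 4 (−1.27, adjusted p = 0.00156). Of 45 further pathway genes 6 differed upward, led by Mib1 (1.41, adjusted p = 0.00185), Dner (1.35, adjusted p = 2.04e-05) and Aph1b (0.72, adjusted p = 7.57e-04), and 4 downward, led by Dlk1 (−1.63, adjusted p = 1.70e-04).

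The pipette groups ask what the hydrogel carrier did to undifferentiated NPC. Dll1 stood at 56.6, 48.6, 47.996, 47.7 and 44.03 CPM in NPC DCH and 37.4, 33.99, 30.04, 29.7 and 39.8 CPM in NPC media, and Jag1 at 78.04, 72.0, 67.1, 73.4 and 60.5 against 92.5, 103, 89.5, 94.8 and 109 CPM. Dll1 was higher and Jag1 lower in all 5 DCH libraries without overlap. Dll1 rose (log2FC 0.53, SE 0.11, adjusted p = 0.00342) and Jag1 fell (log2FC −0.47, SE 0.08, adjusted p = 7.29e-04), so that 2 of 10 members were called (1 higher, 1 lower), beside 4.32% of all 13860 genes tested. Over the members the median log2FC was 0.08, and over all genes 0.00. Dll1 lost its call without NPC DCH library 1 (0.47, adjusted p = 0.0143) or NPC media library 2, 3 or 4 (adjusted p 0.0110, 0.0154 and 0.0152), and in the fit of all 23 groups 0 members were called. Of 42 further pathway genes 2 were higher, Dlk1 (8.38 ± 2.47 against 3.54 ± 1.22 CPM, log2FC 1.25, adjusted p = 0.00964) and Dtx4 (86.9 ± 4.44 against 68.6 ± 6.10 CPM, log2FC 0.35, adjusted p = 0.00689). In edgeR 0 were lower, with 11 of the 42 at an unadjusted p under 0.05 in either direction. This list was not run in DESeq2. Under 2-fold, neuron, fibroblast and ependymal markers did not overlap between NPC DCH and NPC media.

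After 4 hours in the hydrogel Notch1 stood at 168.5, 164, 178, 169 and 178 CPM, below every NPC DCH library (272, 256, 253, 238 and 251 CPM). It fell (log2FC −0.56, SE 0.05, adjusted p = 4.90e-07), and 1 of 10 members were called (0 higher, 1 lower), beside 0.32% of all 13768 genes tested. Notch2 (−0.52, adjusted p = 0.0112) was called with library sizes alone (−0.53, adjusted p = 0.00964) and in DESeq2 (−0.52, adjusted p = 1.12e-04), and the fit of all 23 groups called 0 members. Of 43 further pathway genes 0 were called in either direction in edgeR, with 4 at an unadjusted p under 0.05. Under 2-fold, NPC markers did not overlap between NPC DCH 4h and NPC DCH.

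In host astrocytes Astro SCI was compared with Astro to ask what injury changed. Hes5 stood at 0.931, 0.450, 0.478, 1.01 and 0.836 CPM after SCI and, in the 9 uninjured libraries, at 6.03 at the lowest, 7.77 at the median and 12.3 at the highest CPM. Hes1 stood at 6.17, 10.3, 6.995, 8.15 and 9.86 CPM against 14.1 at the lowest, 19.3 at the median and 37.7 at the highest CPM, and Hey1 at 85.6, 71.4, 99.2, 115 and 85.8 CPM against 121 at the lowest, 149 at the median and 161 at the highest CPM. In each case every injured library was below every uninjured one. Hes5 (log2FC −3.71, SE 0.25, adjusted p = 2.23e-09), Hes1 (log2FC −1.62, SE 0.22, adjusted p = 8.01e-06) and Hey1 (log2FC −0.83, SE 0.10, adjusted p = 1.24e-06) fell. So did Notch2 (−0.85, adjusted p = 9.84e-06), Notch3 (−1.11, adjusted p = 9.86e-05), Jag1 (−1.01, adjusted p = 1.55e-04) and Hey2 (−0.48, adjusted p = 0.00235), of which Notch2 alone had no overlap between groups. In all, 7 of 10 members were called (0 higher, 7 lower), beside 41.1% of all 16886 genes tested. Members had a median log2FC of −0.84 and all genes one of 0.02, and scaling shifted all log2FC by −0.18. With library sizes alone Hey2 lost its call (−0.30, adjusted p = 0.0655). Dll3 (3.15 ± 0.418 against 1.81 ± 0.714 CPM) was called higher without Astro library 5 (0.77, adjusted p = 0.00987) and not otherwise (0.61, adjusted p = 0.0600).

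After SCI 12 of 45 further pathway genes were higher, led by Dlk2 (4.81 ± 1.36 against 0.577 ± 0.299 CPM, log2FC 2.89, adjusted p = 1.41e-06) and Neurl1b (6.98 ± 1.08 against 0.918 ± 0.274 CPM, log2FC 2.74, adjusted p = 1.42e-08), and 13 lower, led by the targets Heyl (10.3 ± 4.66 against 71.9 ± 18.6 CPM, log2FC −2.97, adjusted p = 2.78e-08) and Nrarp (5.89 ± 2.74 against 39.4 ± 9.37 CPM, log2FC −2.92, adjusted p = 1.20e-08). Marker lists that moved with injury were oligodendrocyte-lineage (19893 to 33985 against 4838 to 10438), myeloid (62.3 to 229 against 7.62 to 15.8), endothelial (9.06 to 15.2 against 3.68 to 6.60) and fibroblast (489 to 1031 against 160.5 to 264), and under 2-fold NPC, mural and ependymal, with no gene at 3 counts or fewer. The astrocyte marker sums of the groups overlapped.

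Grafted cells were first set against cultured NPC. In NPC uninjured 14d Hey2 stood at 22.4, 27.2, 28.1, 10.6 and 19.3 CPM, Hey1 at 92.1, 64.8, 63.6, 59.0 and 56.0 CPM and Jag1 at 11.8, 13.7, 4.92, 29.2 and 17.6 CPM. NPC P15 had 0.0250, 0.916, 0.279 and 1.26 CPM of Hey2, 12.3, 9.27, 6.91 and 7.51 CPM of Hey1 and 155, 152, 132 and 155 CPM of Jag1. The grafts were above the cultures for both Hey genes and below them for Jag1, without overlap. Hey2 (log2FC 5.17, SE 0.85, adjusted p = 2.81e-04), Hey1 (log2FC 2.91, SE 0.23, adjusted p = 1.20e-06) and Dll3 (1.87, adjusted p = 0.00239) rose, and Jag1 (log2FC −3.23, SE 0.41, adjusted p = 3.61e-05), Notch1 (−2.10, adjusted p = 2.66e-05), Notch3 (−1.10, adjusted p = 3.93e-04) and Hes1 (−2.20, adjusted p = 2.41e-05) fell. In all, 7 of 10 members were called (3 higher, 4 lower), beside 52.3% of all 15715 genes tested. The median log2FC was −0.40 over the members and 0.20 over all genes. Which of these were called depended on the reference. Against NPC P15 d3, Notch1 (−0.28, adjusted p = 0.335), Notch3 (−0.59, adjusted p = 0.0203), Jag1 (−1.26, adjusted p = 0.0133) and Hes1 (−0.91, adjusted p = 0.0145) were not called and Notch2 was (1.01, adjusted p = 3.67e-04). Against NPC media, Dll3 was not called (0.00, adjusted p = 0.996) while Notch2 (0.89, adjusted p = 1.98e-04) and Dll1 (−1.10, adjusted p = 0.00901) were.

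In these grafts 13 of 45 further pathway genes were higher and 13 lower. Dll4 (3.25 CPM) was at least 48.2-fold and Hes3 (2.34 CPM) at least 34.7-fold higher, since NPC P15 libraries had 0 counts of either and the floor was again 3 counts per library. Heyl (49.9 ± 15.6 against 0.160 ± 0.135 CPM, log2FC 8.40, adjusted p = 1.94e-07) rose too. The largest falls were those of Lfng (37.1 ± 10.7 against 230.0 ± 15.5 CPM, log2FC −2.60, adjusted p = 7.13e-07) and Nrarp (6.01 ± 3.08 against 31.4 ± 2.57 CPM, log2FC −2.37, adjusted p = 1.37e-04). Marker lists without overlap between grafts and culture were NPC (397 to 1228 against 3907 to 4148), astrocyte (10268 to 17052 against 726 to 764), oligodendrocyte-lineage (10952 to 24349 against 262 to 314), neuron (961 to 4359 against 32.5 to 37.7), myeloid (97.01 to 509 against 0 to 0.0774), endothelial (22.2 to 265 against 1.03 to 2.07), mural (126.5 to 351 against 0.806 to 1.81), fibroblast (1263 to 3363 against 66.8 to 72.9) and ependymal (103 to 174.8 against 6.79 to 11.8). In NPC P15 Ptprc, Aif1, Itgam, Cx3cr1, Cldn5, Rgs5, Abcc9, Tmem212 and Ccdc153 were at 3 counts or fewer.

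At 5 days after grafting into SCI the grafts were compared with NPC P15 d2, since the deposited files of both name 1 read data set in their headers and those of all other groups 2. Notch1 stood at 66.6, 90.6, 91.0, 41.6 and 70.1 CPM in the grafts and at 381 at the lowest, 414 at the median and 481 at the highest CPM in culture. Hey1 stood at 160.2, 200.4, 169, 66.4 and 161 CPM against 30.4 at the lowest, 31.3 at the median and 33.9 at the highest CPM, and Hes5 at 0.895, 1.67, 1.09, 0.493 and 0.849 CPM against 10.6 at the lowest, 12.0 at the median and 13.2 at the highest CPM. Graft library 4 was the lowest of its group for all 3 genes, and no gene's groups overlapped. Notch1 (log2FC −2.58, SE 0.16, adjusted p = 1.55e-08) and Hes5 (log2FC −3.58, SE 0.26, adjusted p = 5.45e-08) fell and Hey1 rose (log2FC 2.25, SE 0.19, adjusted p = 2.25e-07). The fall of Hes5 depended on the reference, since grafts overlapped NPC P15 (mean 1.51 CPM) and were above NPC P15 d3 (mean 0.364 CPM). In all, 8 of 10 members were called (3 higher, 5 lower), beside 69.3% of all 13830 genes tested. Over the members the median log2FC was −0.76, and over all genes 0.04. Hey2 (3.88, adjusted p = 4.82e-08) and Notch2 (0.86, adjusted p = 4.42e-04) rose, and Dll1 (−2.67, adjusted p = 2.69e-07), Jag1 (−2.24, adjusted p = 6.44e-07) and Hes1 (−1.02, adjusted p = 0.00282) fell, Jag1 and Hes1 overlapping NPC P15 d3 and NPC P5. Of 43 further pathway genes 17 were higher, among them Heyl with 35.99 ± 13.96 CPM in grafts against 0 to 2 counts per library in culture, and Dll4 (4.68 ± 1.91 CPM) and Mfng (5.44 ± 5.46 CPM), which were below 1 CPM on average in culture. The 14 that were lower were led by Adam10 (82.3 ± 20.8 against 281 ± 10.4 CPM, log2FC −1.77, adjusted p = 2.72e-07), the protease that makes the first cut of the bound receptor, and Maml2 (46.6 ± 6.77 against 125 ± 5.92 CPM, log2FC −1.42, adjusted p = 1.01e-08). Marker lists without overlap between grafts and culture were NPC (691 to 2923 against 3765 to 4256), astrocyte (6922 to 24956 against 1804 to 2101), oligodendrocyte-lineage (1199.5 to 9169 against 140.1 to 199), neuron (108 to 821 against 48.3 to 63.5), myeloid (77.5 to 1137 against 0.442 to 1.37), endothelial (15.9 to 242 against 3.06 to 4.92), mural (245 to 1027 against 4.53 to 7.06), fibroblast (4094 to 12141 against 58.7 to 66.2) and ependymal (70.3 to 178 against 15.2 to 20.8). In culture Sox10, Stmn2, Ptprc, Aif1, Itgam, Cx3cr1, Cldn5, Tmem212 and Ccdc153 were at 3 counts or fewer.

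Between grafts at 14 days, SCI against uninjured cord asks what the lesion changed. Dll1 stood at 6.80, 6.46, 7.43, 1.59 and 0.765 CPM after SCI and 19.02, 11.3, 24.4, 17.9 and 5.33 CPM in uninjured cord, and Hey1 at 84.95, 99.4, 98.2, 98.1 and 45.9 against 92.1, 64.8, 63.6, 59.0 and 56.0 CPM. Library 5 was the lowest of its group for each gene in both groups, and the groups overlapped. In edgeR 0 of 10 members were called, beside 4.64% of all 15813 genes tested; 2 members had an unadjusted p under 0.05, DESeq2 called 0, and the fit of all 23 groups 2. The values of these genes were log2FC −1.52, SE 0.56, adjusted p = 0.0869 for Dll1 and log2FC 0.60, SE 0.20, adjusted p = 0.0629 for Hey1, and scaling shifted all log2FC by 0.28. Of 45 further pathway genes 0 were called and 9 had an unadjusted p under 0.05. Marker lists that did not overlap were oligodendrocyte-lineage (3935 to 9477 against 10952 to 24349) and neuron (392 to 658 against 961 to 4359).

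The double crush was compared with the single crush. Dll3 stood at 1.13, 0.330, 0.226, 2.64 and 3.42 CPM in NPC dSCI 14d and 13.4, 18.7, 15.1, 13.2 and 13.9 CPM in NPC SCI 14d, and Jag1 at 46.4, 32.3, 17.8, 25.2 and 13.4 against 4.54, 7.46, 7.25, 9.84 and 11.3 CPM. All double-crush libraries were lower for Dll3 and higher for Jag1, without overlap. Even so, edgeR called 0 of 9 members tested (Hes5 had too few counts), beside 1.83% of 15790 genes, with 5 members at an unadjusted p under 0.05, while DESeq2 called 3 and the fit of all 23 groups 6. The edgeR values were log2FC −3.10, SE 0.73, adjusted p = 0.0199 for Dll3, log2FC 1.62, SE 0.35, adjusted p = 0.0152 for Jag1 and log2FC −0.90, SE 0.21, adjusted p = 0.0212 for Hey1. In DESeq2 Dll3 (−3.09, adjusted p = 2.46e-04), Jag1 (1.60, adjusted p = 7.43e-04) and Hey1 (−0.90, adjusted p = 0.00212) were called. Without NPC SCI 14d library 5 edgeR called Jag1 (1.85, adjusted p = 0.00411) and Hey1 (−1.02, adjusted p = 0.00323), and without NPC dSCI 14d library 5 it called Dll3 (−3.88, adjusted p = 0.00508). Of 45 further pathway genes edgeR called 0, and 11 had an unadjusted p under 0.05. Between the crushes endothelial (48.5 to 516 against 13.2 to 47.2) and fibroblast (4236 to 19297 against 845 to 2725) and, under 2-fold, mural markers did not overlap.

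Time in the lesion was addressed by SCI grafts at 14 against 5 days, groups whose file headers also differ, naming 2 read data sets at 14 days and 1 at 5 days. Notch3 stood at 61.6, 53.1, 60.2, 63.1 and 64.8 CPM at 14 days and 191.8, 302, 258, 65.2 and 208 CPM at 5 days, and Jag1 at 4.54, 7.46, 7.25, 9.84 and 11.3 against 26.9, 49.1, 37.4, 20.5 and 18.1 CPM. The 14-day libraries were lower without overlap, and 5-day library 4 came closest to them for Notch3. Notch3 (log2FC −1.55, SE 0.30, adjusted p = 0.00591) and Jag1 (log2FC −1.69, SE 0.35, adjusted p = 0.00797) fell, so that 2 of 10 members were called (0 higher, 2 lower), beside 5.3% of all 15314 genes tested. Members had a median log2FC of −0.71 and all genes one of 0.00, with a shift by scaling of 0.17. All 23 groups in 1 fit called 6. Time and the number of read data sets cannot be told apart here. Both calls were lost without NPC SCI 14d library 1, 2, 3 or 4 or NPC SCI 5d library 1, 2 or 3 (adjusted p from 0.0128 to 0.0290), and Notch3 alone without NPC SCI 5d library 5 (−1.56, adjusted p = 0.0112). Leaving out NPC SCI 14d library 4 added Hes1 (−2.31, adjusted p = 0.00339), library 5 added Notch2 (−1.08, adjusted p = 0.00932), and NPC SCI 5d library 4 added Hey1 (−0.84, adjusted p = 0.00904). Of 45 further pathway genes Dtx1 (43.4 ± 11.0 against 19.2 ± 7.02 CPM, log2FC 1.33, adjusted p = 0.00693) was the 1 that rose, and Nrarp (1.99 ± 1.38 against 29.7 ± 15.7 CPM, log2FC −3.70, adjusted p = 0.00575), Furin (58.4 ± 6.43 against 162 ± 34.05 CPM, log2FC −1.27, adjusted p = 0.00131) and Dtx4 (107 ± 12.9 against 266 ± 79.3 CPM, log2FC −1.13, adjusted p = 0.00391) were the 3 that fell. Of the markers, mural (120.1 to 191 against 245 to 1027) and fibroblast (845 to 2725 against 4094 to 12141) did not overlap, with no gene at 3 counts or fewer.

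Grafts were then compared with host astrocytes of uninjured and of injured cord. In uninjured cord Dll1 stood at 19.02, 11.3, 24.4, 17.9 and 5.33 CPM in grafts and 1.74 at the lowest, 2.70 at the median and 3.57 at the highest CPM in hosts. Hey2 stood at 22.4, 27.2, 28.1, 10.6 and 19.3 CPM against 48.96 at the lowest, 58.3 at the median and 62.7 at the highest CPM. Dll1 was higher and Hey2 lower in all 5 grafts than in all 9 hosts. Dll1 (log2FC 1.96, SE 0.28, adjusted p = 8.80e-06) and Dll3 (2.17, adjusted p = 1.73e-05) rose, while Hey2 (log2FC −1.95, SE 0.18, adjusted p = 4.32e-08), Hey1 (−1.65, adjusted p = 3.44e-09), Hes5 (−3.19, adjusted p = 9.01e-05), Hes1 (−0.93, adjusted p = 0.00423) and Notch3 (−0.79, adjusted p = 5.84e-04) fell. In all, 7 of 10 members were called (2 higher, 5 lower), beside 49.7% of all 16506 genes tested. The median log2FC was −0.47 over the members and 0.06 over all genes. Scaling shifted all log2FC by −0.55 here, the largest shift of the 21 comparisons. With library sizes alone Notch3 (−0.23, adjusted p = 0.277) and Hes1 (−0.40, adjusted p = 0.184) lost their calls, Notch1 was called higher (1.07, adjusted p = 4.22e-04), and Notch2 turned from −0.16, adjusted p = 0.248 to 0.39, adjusted p = 0.00628. Hes1 also lost its call without graft library 2, 3, 4 or 5 (adjusted p 0.01, 0.0136, 0.0120 and 0.0136), and without library 5 Notch1 was called (0.70, adjusted p = 0.00185). Marker lists without overlap were astrocyte (10268 to 17052 against 30743 to 38208), oligodendrocyte-lineage (10952 to 24349 against 4838 to 10438), neuron (961 to 4359 against 179.2 to 275), myeloid (97.01 to 509 against 7.62 to 15.8), endothelial (22.2 to 265 against 3.68 to 6.60), mural (126.5 to 351 against 22.3 to 41.2) and fibroblast (1263 to 3363 against 160.5 to 264), with no gene at 3 counts or fewer.

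After SCI, in grafts and hosts at 14 days, Dll3 stood at 13.4, 18.7, 15.1, 13.2 and 13.9 CPM in grafts and 3.01, 2.51, 3.61, 3.27 and 3.35 CPM in hosts, and Hey2 at 23.1, 19.9, 13.4, 9.94 and 19.8 against 49.7, 32.4, 41.9, 66.7 and 40.3 CPM. Grafts were above hosts for Dll3 and below them for Hey2, without overlap. Dll3 (log2FC 2.18, SE 0.22, adjusted p = 2.56e-05) and Notch2 (1.20, adjusted p = 0.00463) rose and Hey2 fell (log2FC −1.46, SE 0.25, adjusted p = 9.28e-04), so that 3 of 10 members were called (2 higher, 1 lower), beside 14.6% of all 16575 genes tested. Over the members the median log2FC was 0.45, and over all genes 0.01. Notch2 lost its call without Astro SCI library 1, 2, 3 or 5 (adjusted p 0.0155, 0.0130, 0.0135 and 0.0123). Notch1 (0.98, adjusted p = 0.0115) was called with library sizes alone (0.99, adjusted p = 0.00767) and in DESeq2 (0.98, adjusted p = 0.00124), and the fit of all 23 groups called 5 members. Among marker lists oligodendrocyte-lineage (3935 to 9477 against 19893 to 33985) and mural (120.1 to 191 against 54.1 to 69.2) and, under 2-fold, astrocyte and ependymal did not overlap, with no gene at 3 counts or fewer.

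Among 45 further pathway genes, 16 were higher and 9 lower in grafts than in hosts of uninjured cord. The former were led by Dll4 (3.25 ± 2.85 against 0.0995 ± 0.0848 CPM, log2FC 4.43, adjusted p = 1.90e-04) and the latter by Nrarp (6.01 ± 3.08 against 39.4 ± 9.37 CPM, log2FC −3.27, adjusted p = 1.85e-08). After SCI 1 was higher, Dlk1 (11.7 ± 1.15 against 4.89 ± 0.981 CPM, log2FC 1.21, adjusted p = 0.00292), and 3 were lower, Dtx1 (43.4 ± 11.0 against 88.9 ± 15.6 CPM, log2FC −1.10, adjusted p = 7.14e-04), Lfng (34.97 ± 9.30 against 59.1 ± 9.86 CPM, log2FC −0.82, adjusted p = 0.00456) and Mib2 (33.1 ± 7.81 against 51.1 ± 2.37 CPM, log2FC −0.67, adjusted p = 0.00829).

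The injury effect in grafts minus that in host astrocytes was tested as an interaction. Hey1 differed by 1.40 on the log2 scale (SE 0.21, adjusted p = 1.07e-05), with lower levels after SCI in hosts (91.5 against 144 CPM) and higher mean levels in grafts (85.3 against 67.1 CPM). Notch2 (1.28, adjusted p = 8.34e-04) and Notch3 (1.37, adjusted p = 5.01e-04) also differed. Both were lower after SCI in hosts, while the 2 graft groups overlapped. In all, 3 of 10 members were called (3 higher, 0 lower), beside 16.8% of all 17536 genes tested; scaling shifted this difference by 0.42. The fit of all 23 groups called 6. With library sizes alone Notch2 (0.80, adjusted p = 0.0111) and Notch3 (0.93, adjusted p = 0.0145) lost their calls and Dll1 was called (−2.14, adjusted p = 0.00548). Dll1 (−1.76, adjusted p = 0.0194) was also called without NPC uninjured 14d library 5 (−1.93, adjusted p = 0.00863). Among 45 further pathway genes 2 differed upward, Heyl (2.47, adjusted p = 3.47e-05) and Lfng (2.00, adjusted p = 2.20e-07), and 4 downward, among them Dlk2 (−2.70, adjusted p = 7.24e-04), Jag2 (−2.45, adjusted p = 0.00766) and Neurl1b (−1.57, adjusted p = 0.00904).

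**Figure D3:**
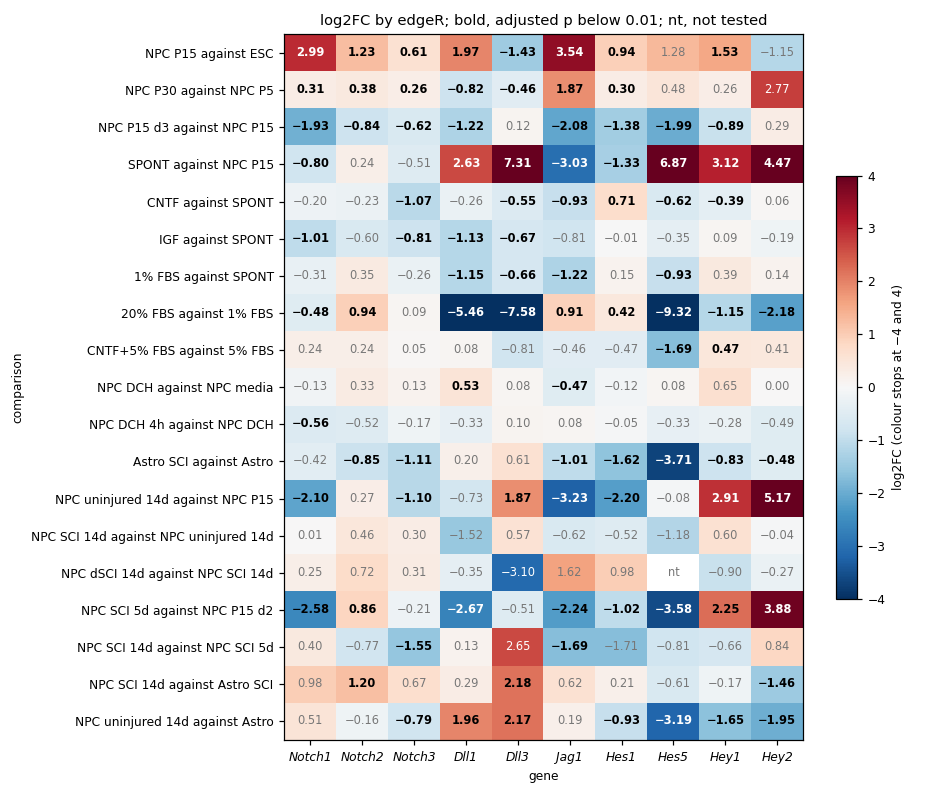
Log2 fold change of each of the 10 members (columns) in each of the 19 direct comparisons (rows), with values in bold where the adjusted p was below 0.01 and nt where the gene was not tested. Dll1, Dll3, Hes5, Hey1 and Hey2 were higher in SPONT than in NPC P15, and the first 3 of these were among the lowest values with 20% FBS.

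Promoter windows, 250 bases before to 50 after the annotated start, were available for 8 of the 10 members from RefSeq (build GRCm38.p6), and were searched on both strands because Hes5, Hey2 and Dll3 moved together in SPONT. Hes1 and Hey1 had no window. The motifs were TGGGAA, the core bound by Rbpj, GTGGGAA, which contains it, and CACNAG, the N-box to which Hes proteins bind. TGGGAA stood in 25.6% of all 32851 windows, GTGGGAA in 6.38% and CACNAG in 42.5%. Hes5 and Hey2 each held 2 matches of TGGGAA, all within GTGGGAA, and no window of Notch1, Notch2, Notch3, Dll1 (2 windows), Dll3 or Jag1 held either. CACNAG was found 3 times in Notch1, 1 time in Notch2, 2 times in Notch3 and 1 time in 1 of the Dll1 windows. A match describes letters in a window, and binding was not measured.

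The windows of Hes5 (chr4:154960673-154960972 on the plus strand) and Hey2 (chr10:30842734-30843033 on the minus strand) are shown 5′ to 3′ along each gene because both genes rose in SPONT and hold the longer motif. The annotated span of Hes5 begins at base 154960626, so its whole window, with the start used and the motif matches, lies inside that span. Capitals mark GTGGGAA or its reverse complement TTCCCAC.
Hes5: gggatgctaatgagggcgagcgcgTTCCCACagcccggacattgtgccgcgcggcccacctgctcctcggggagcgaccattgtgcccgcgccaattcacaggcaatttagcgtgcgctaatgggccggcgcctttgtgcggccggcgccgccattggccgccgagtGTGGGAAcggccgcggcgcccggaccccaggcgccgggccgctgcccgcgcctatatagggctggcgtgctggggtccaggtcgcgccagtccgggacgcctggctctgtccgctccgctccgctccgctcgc
Hey2: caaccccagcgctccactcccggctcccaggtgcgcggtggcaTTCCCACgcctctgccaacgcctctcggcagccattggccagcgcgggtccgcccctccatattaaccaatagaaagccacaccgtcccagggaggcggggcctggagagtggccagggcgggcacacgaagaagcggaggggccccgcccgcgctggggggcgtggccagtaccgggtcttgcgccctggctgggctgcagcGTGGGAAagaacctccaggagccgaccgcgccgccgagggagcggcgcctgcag

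The genes whose group means followed each member most closely were found by Pearson r of mean log2(CPM + 1) over the 23 groups, among 13133 genes with a group mean of at least 10 CPM. These groups share cell sources and depth, so r is a description and carries no p. For the ligands they were Sox3 (0.911), Etv1 (0.898) and Tubb2b (0.894) for Dll1, Dleu7 (0.906), Polr2f (0.891) and Wasf1 (0.876) for Dll3, and Dgkz (0.933), Cgas (0.925) and Atp2b1 (0.920) for Jag1. For the receptors they were Zfp12 (0.950), Sbf2 (0.934) and Fbxo11 (0.933) for Notch1, Tbc1d2b (0.913), Adamts16 (0.890) and Rdh10 (0.890) for Notch2, and Acsl4 (0.879), Jag1 (0.866) and B3glct (0.859) for Notch3. For the targets they were Virma (0.887), Aco1 (0.875) and Ankle2 (0.871) for Hes1, Dll3 (0.869), Dleu7 (0.868) and Acss1 (0.862) for Hes5, S1pr1 (0.959), Ednrb (0.958) and Atp1b2 (0.954) for Hey1, and Aqp4 (0.974), Fxyd1 (0.969) and Gpr37l1 (0.967) for Hey2. Members themselves appear in these lists, Jag1 beside Notch3 and Dll3 beside Hes5. Hey2 was most like Aqp4, the water channel of astrocyte endfeet.

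Between members, the r over the 23 groups was 0.869 for Dll3 with Hes5, 0.866 for Notch3 with Jag1 and 0.852 for Hey1 with Hey2. Dll1 had 0.784 with Dll3 and 0.734 with Hes5. The targets did not share 1 order, since Hes1 had 0.150 with Hes5, −0.562 with Hey1 and −0.782 with Hey2. Among receptors and targets, Notch1 had 0.721 with Hes1 and −0.621 with Hey2.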

How the data were processed

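The deposited values are raw counts per gene, which the authors made for each library with Trimmomatic, HISAT2 (mouse build mm10) and featureCounts. RNA bound to tagged ribosomes was counted in 107 libraries of 23 groups, which were taken from the sample titles. Per the file headers 96 libraries were aligned from 2 read data sets each and the 11 of NPC P15 d2 and NPC SCI 5d from 1. Of the gene counts between 1 and 20, 53.1 to 73.8% were even numbers in the 96 and 43.1 to 48.5% in the 11, which also have lower totals.

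Of 27179 Entrez identifiers 25275 were named from RefSeq, and 21610 had an exon length from GENCODE M21. CPM used library totals. Each comparison was fitted in R 4.3.3 with edgeR 4.0.16 (quasi-likelihood test on its own groups, TMM scaling, filterByExpr with a minimum count of 10), with Benjamini-Hochberg adjustment over all genes tested and a threshold of 0.01. SE was the absolute log2 fold change divided by the square root of F. The code was tested on simulated data. Other software was DESeq2 1.42.0, limma 3.58.1, pandas 2.3.3, numpy 2.4.6, matplotlib 3.10.9, Python 3.11.15 and the R package data.table, version 1.17.8.

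All 10 members, 46 of 46 further pathway genes and 49 of 49 marker genes matched. Up to 3 pathway genes per direction were named, the called genes with the largest absolute log2 fold changes whose mean reached 1 CPM in a compared group. Members and lists were chosen with earlier results of these data known. Alternatives tried were DESeq2's size factors and its Wald test, no filter on low counts, other reference groups, leaving out each library, all 23 groups in 1 fit, a replicate block and library sizes without TMM. No library was left out, and no pair of libraries was identical.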

Additional observations from a re-analysis of the deposited data

Results flagged for a closer look

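Of 230 sets of values, 1 for each member in each group, 21 had a highest or lowest library set apart from the rest of its group by a gap larger than Dixon's 95% limit for the group's range. Chance sets apart about 1 in 20 groups, or 11.5 of 230, and the members are not independent of each other.

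Among the receptors, Notch1 was 97.7 CPM in IGF 3, 206 CPM in 5% FBS 4, 123 CPM in 20% FBS 4 and 42.8 CPM in NPC uninjured 14d 5, each the lowest of its group, and 121 CPM in NPC SCI 14d 5, the highest. Notch2 was highest at 79.5 CPM in NPC P30 1 and 145 CPM in NPC SCI 14d 5 and lowest at 172.2 CPM in 20% FBS 4. Notch3 was lowest at 52.6 CPM in SPONT 2 and 34.5 CPM in CNTF 3.

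Among the ligands, Jag1 was lowest at 132 CPM in NPC P15 3 and highest at 8.40 CPM in 1% FBS 4. No group of Dll1 or Dll3 had such a library.

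Among the targets, Hes1 was highest at 53.4 CPM in CNTF 3 and 23.7 CPM in NPC SCI 14d 4, and Hes5 at 0.158 CPM in NPC dSCI 14d 5. Hey1 was lowest at 38.8 CPM in 10% FBS 2, 8.29 CPM in NPC DCH 4h 2 and 45.9 CPM in NPC SCI 14d 5 and highest at 92.1 CPM in NPC uninjured 14d 1. Hey2 was highest at 15.8 CPM in 1% FBS 4 and 11.2 CPM in CNTF+5% FBS 3. NPC SCI 14d library 5 was set apart for 3 members.

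Effects of injury or of CNTF differed between settings for 6 results, each tested as an interaction with an adjusted p below 0.01. For grafts the injury effect is that of placement in injured against uninjured cord, since they were placed after the injury that hosts underwent. The injury effect in grafts minus that in host astrocytes was 1.28 for Notch2, 1.37 for Notch3 and 1.40 for Hey1 on the log2 scale. With library sizes alone the calls of Notch2 and Notch3 were lost in this interaction. The CNTF effect with 5% FBS minus that without serum was 1.11 for Notch3, −1.18 for Hes1 and 0.84 for Hey1.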

How the results depend on the processing

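DESeq2's size factors in edgeR changed the side of the threshold for none of the 209 member values, of which 99 were called. Over 3484 member values under all alternatives 3 reversed, and 61 changed sign without a call on either side. Counts of members called stayed within 1.5 times the reported count except as given here, and the cause was not tested. With all 23 groups in 1 fit, which pools the spread over all groups, the count was 2 for NPC P30 against NPC P5, 2 for CNTF and 1 each for IGF and 1% FBS against SPONT, 0 for CNTF+5% FBS against 5% FBS, 0 for NPC DCH against NPC media, 0 for NPC DCH 4h against NPC DCH, 2 for NPC SCI 14d against NPC uninjured 14d, 6 for NPC dSCI 14d against NPC SCI 14d, 6 for NPC SCI 14d against NPC SCI 5d, 5 for NPC SCI 14d against Astro SCI, 6 for the injury interaction and 1 for the CNTF interaction. The DESeq2 Wald test gave 7 for IGF, 4 for CNTF+5% FBS, 2 for NPC DCH 4h, 3 for NPC dSCI 14d and 4 for NPC SCI 14d against NPC SCI 5d. Without a filter on low counts NPC DCH 4h had 2.

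Library sizes without TMM, an alternative chosen after seeing the data, gave 2 for NPC DCH 4h and 2 for NPC dSCI 14d, and Notch2 in NPC uninjured 14d against Astro reversed to 0.39. The share of higher genes among all called genes moved by over 10 points with it: from 48.4 to 68.4% in CNTF+5% FBS against 5% FBS, 54.2 to 70.8% in Astro SCI against Astro, 45 to 12.6% in NPC SCI 14d against NPC uninjured 14d, 70.6 to 82.6% in NPC dSCI 14d against NPC SCI 14d, 51.3 to 32.8% in NPC SCI 14d against NPC SCI 5d, 53.2 to 79.6% in NPC uninjured 14d against Astro, 36.4 to 10.1% in the injury interaction and 44.9 to 61.8% in the CNTF interaction. With NPC P15 d3 as reference NPC uninjured 14d had 4 members called, and in SPONT Notch1 reversed to 1.11 and Hes1 to 0.026 (not called).

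Leaving out each library in turn gave counts of 0 to 6 for IGF, 2 to 6 for 1% FBS, 1 to 2 for NPC DCH, 0 to 2 for NPC dSCI 14d, 0 to 3 for NPC SCI 14d against NPC SCI 5d and 3 to 6 for the CNTF interaction. In the other comparisons they stayed within 1.5 times the reported count, with ranges of 5 to 7 for NPC P30 against NPC P5, 6 to 8 for NPC P15 d3, 8 to 10 for SPONT and 4 to 8 for CNTF.

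Replicate numbers were checked as a block. Of 25 pairs of groups, 1 (5% FBS and SPONT, mean r 0.212) had every residual correlation between equal numbers above 0.1, and mean r ranged from −0.151 to 0.212, so samples were not treated as paired. With the block IGF and NPC SCI 14d against NPC SCI 5d had 0 members called in edgeR, NPC P30 against NPC P5 6, NPC P15 d3 7, SPONT 9, CNTF 5, 1% FBS 3, Astro SCI 5, NPC SCI 14d against Astro SCI 2, NPC uninjured 14d against Astro 5 and the injury interaction 2. The block uses up degrees of freedom.

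Depth limits, by counts per library, Hes5 in NPC dSCI 14d (2 to 7), 20% FBS (4 to 15) and NPC SCI 5d (7 to 25). It also limits Hes5 in ESC (0 to 106), NPC uninjured 14d (4 to 178) and NPC SCI 14d (6 to 42). Hes5 in NPC P15 d3 (12 to 38) is limited too. So is Hey2 in NPC P5 (2 to 36), NPC P15 (2 to 71) and NPC P15 d2 (7 to 15). The same holds for Hey2 in NPC DCH (from 2) and NPC media (from 0), and for Dll3 in NPC SCI 5d (0 to 109).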
